A study of Mus musculus with 7 samples.

Results

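Interferon-stimulated genes are the part of the liver transcriptome that rises when a cell meets a virus, foreign nucleic acid or interferon itself. The 9 genes described here, Ifit1, Ifit2, Ifit3, Isg15, Irf7, Usp18, Rsad2, Oasl2 and Ifi44, were taken by their symbol from gene tables of 37468 rows per library, and all 9 had a row. The question put to them was whether liver carries an innate response to the SunTag knock-in, or to whatever was delivered to activate Myod1.

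RNA of C57BL/6 mouse liver had been sequenced in 7 libraries. Wild Type mice (WT) gave 2 libraries and SunTag-dCas9 mice (SunTag) gave 2. The design text places the remaining 3 in the same SunTag-dCas9 line. Of these, 1 had Myod1 activated (Myod1_active) and 2 served as controls (Myod1_control). The knock-in is therefore shared by SunTag, Myod1_control and Myod1_active. dCas9 is a form of Cas9 that finds its DNA target without cutting, and SunTag is a repeated peptide that recruits effector proteins to it. The sources used here do not give the agent and route of Myod1 activation, the treatment of the controls, the age of the mice or the promoter of the transgene.

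Type I interferons bind a receptor made of Ifnar1 and Ifnar2, whose kinases Jak1 and Tyk2 start the signal. A complex that includes Stat2 and Irf9 then binds a repeated TTTC element, the interferon-stimulated response element, near its target genes. In liver, hepatocytes, the resident macrophages (Kupffer cells) and endothelial cells can all respond, and a low tonic expression of these genes without infection is usual.

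Of the 9 genes, 8 had a promoter in RefSeq (GRCm38.p6), and Usp18 is named only. The window held 250 bases before and 50 after the annotated start. It was searched for the core of the response element, spelled as TTTC, any 2 bases and TTTC again, and on the other strand as GAAA, any 2 bases and GAAA, with overlapping matches allowed. A match was present in 4 of the 8, namely Ifit1, Ifit3, Isg15 and Rsad2, against 1079 of 27025 genes with such a window (3.99%). Among 49 other interferon-stimulated genes with a promoter entry, 23 held one (46.9%). The 200 bases upstream of the start are printed for these 4 because they show the element that the family is known for, 5′ to 3′ along the strand of the gene, with the matches in capitals. Ifit1 is on the plus strand (chr19:34640689-34640888), Ifit3 on the plus strand (chr19:34583329-34583528), Isg15 on the minus strand (chr4:156200819-156201018) and Rsad2 on the minus strand (chr12:26456453-26456652), all in GRCm38.p6.
Ifit1: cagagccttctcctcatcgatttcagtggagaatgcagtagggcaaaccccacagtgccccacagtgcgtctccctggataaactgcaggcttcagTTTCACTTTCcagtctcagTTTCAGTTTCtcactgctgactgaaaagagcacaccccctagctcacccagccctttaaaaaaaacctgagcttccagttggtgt
Ifit3: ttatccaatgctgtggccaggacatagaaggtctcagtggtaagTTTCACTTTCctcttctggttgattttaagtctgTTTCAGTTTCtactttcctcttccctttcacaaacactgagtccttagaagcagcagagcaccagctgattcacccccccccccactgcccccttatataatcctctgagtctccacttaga
Isg15: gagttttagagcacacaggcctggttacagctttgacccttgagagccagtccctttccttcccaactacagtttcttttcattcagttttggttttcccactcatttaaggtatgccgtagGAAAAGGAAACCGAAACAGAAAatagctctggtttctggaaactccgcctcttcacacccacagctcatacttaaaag
Rsad2: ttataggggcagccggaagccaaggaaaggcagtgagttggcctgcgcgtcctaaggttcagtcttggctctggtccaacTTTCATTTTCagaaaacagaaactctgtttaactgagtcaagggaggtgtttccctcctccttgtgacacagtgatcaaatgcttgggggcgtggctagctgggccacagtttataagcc
The matches were centred 99 and 80 bases upstream of the start in Ifit1 and 151 and 117 bases upstream in Ifit3. Both genes carried the same pair of spellings, TTTCACTTTC followed by TTTCAGTTTC. In Isg15, 3 matches on the other strand overlapped in 1 run, centred 73, 67 and 61 bases upstream, and in Rsad2 there was 1, at 115 bases. A match is a description of letters, and binding was not measured.

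Expression is given as FPKM, fragments scaled to the length of the transcript and to the size of the library, so levels of different genes can be set side by side. Changes are log2 differences of FPKM + 1, which understate the change of low genes. They were tested with limma over all 15744 genes with an FPKM of 1 or more in any library, with a threshold of 0.05 on the Benjamini-Hochberg adjusted p. All 9 genes passed that filter, Ifit2 only through WT and SunTag. A gene under 1 FPKM throughout 1 experiment passes only through the other, so the direction of its difference is largely fixed in advance. Myod1 was at 3.52 FPKM in Myod1_active and listed at 0 in the other 6 libraries. Xist was at 56.9 to 82.2 FPKM in the WT and SunTag libraries and at 0.00420 to 0.324 in those of the Myod1 experiment, while Y-linked Ddx3y, Uty, Kdm5d and Eif2s3y were high in the latter alone. The experiments thus differ in sex as well as in treatment. Total read counts were unknown, and the deposited bounds placed the relative depth between 0.940 and 1.10. The mitochondrial tRNA mt-Ts1 took 26.9% to 34.1% of the FPKM sum in WT and SunTag and 5.85% to 8.41% in the Myod1 experiment. The labels do not tie replicates to separate animals, so the spread behind each p-value may be technical.

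Irf7 was the most abundant of the 9 in each of the 7 libraries. Irf7 (ENSMUSG00000025498, chromosome 7, 148448605 to 148452380 in mm9), the transcription factor that amplifies interferon production, had 21.5 and 41.7 FPKM in the WT libraries, 32.4 and 26.7 in SunTag, 43.2 and 18.3 in Myod1_control and 17.1 in Myod1_active. The 2 libraries of WT, and likewise those of Myod1_control, lay further apart than any pair of group means, so the groups of Irf7 have no order beyond their spread. The span of Irf7 overlaps Phrf1, which was at 6.83 to 10.5 FPKM, so its value is uncertain where reads could fall to either.

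Isg15 (ENSMUSG00000035692, chromosome 4, 155573533 to 155574927) encodes a ubiquitin-like protein that is attached to other proteins. The WT libraries had 16.7 and 19.9 FPKM and the SunTag libraries 18.5 and 22.6. In the Myod1 experiment it was at 4.70 and 3.61 in Myod1_control and at 5.40 in Myod1_active. WT and SunTag overlapped, while all 3 libraries of the Myod1 experiment lay below them.

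Usp18 (ENSMUSG00000030107, chromosome 6, 121195924 to 121220934) removes Isg15 from proteins and dampens signalling at the receptor. Its FPKM was 6.05 and 8.23 in the WT libraries, 7.57 and 9.72 in SunTag, 5.32 and 2.09 in Myod1_control and 8.40 in Myod1_active. The activated library thus lay inside the range of WT and SunTag, and both controls lay below it.

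The 3 Ifit genes, whose proteins bind viral RNA, lie near each other on chromosome 19: Ifit2 (ENSMUSG00000045932) at 34625184 to 34650909, Ifit3 (ENSMUSG00000074896) at 34658021 to 34663221 and Ifit1 (ENSMUSG00000034459) at 34715361 to 34724499. Ifit1 had 6.31 and 6.85 FPKM in the WT libraries, 7.18 and 7.90 in SunTag, 1.31 and 1.03 in Myod1_control and 2.14 in Myod1_active. Ifit3 was at 7.47 and 12.9 in WT, 11.0 and 13.8 in SunTag, 3.03 and 1.83 in Myod1_control and 4.0 in Myod1_active. Ifit2 was the lowest of the 3, at 1.13 and 1.49 in WT, 1.108 and 1.33 in SunTag, 0.248 and 0.225 in Myod1_control and 0.404 in Myod1_active. In each of the 3 genes the Myod1 experiment lay below all WT and SunTag libraries, and Myod1_active lay above both of its controls. Ifit3 is uncertain because reads can be shared with its near-identical copy Ifit3b, listed as I830012O16Rik.

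The remaining 3 were low. Rsad2 (ENSMUSG00000020641, chromosome 12, 27127618 to 27141317) encodes viperin, an enzyme that makes a chain-terminating nucleotide. The WT libraries had 3.32 and 4.63 FPKM of it, with 4.96 and 5.62 in SunTag, 3.001 and 3.45 in Myod1_control and 4.28 in Myod1_active. Oasl2 (ENSMUSG00000029561, chromosome 5, 115346943 to 115362243), a member of the oligoadenylate synthetase family, was at 3.42 and 4.34 in WT, 5.04 and 4.85 in SunTag, 1.91 and 1.02 in Myod1_control and 1.496 in Myod1_active. Ifi44 (ENSMUSG00000028037, chromosome 3, 151393886 to 151412911) was at 1.60 and 1.67 in WT, 2.04 and 1.96 in SunTag, 1.75 and 0.499 in Myod1_control and 1.02 in Myod1_active. Of these, Oasl2 was lower in all 3 libraries of the Myod1 experiment than in any other, and Rsad2 and Ifi44 overlapped.

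**Figure D1:**
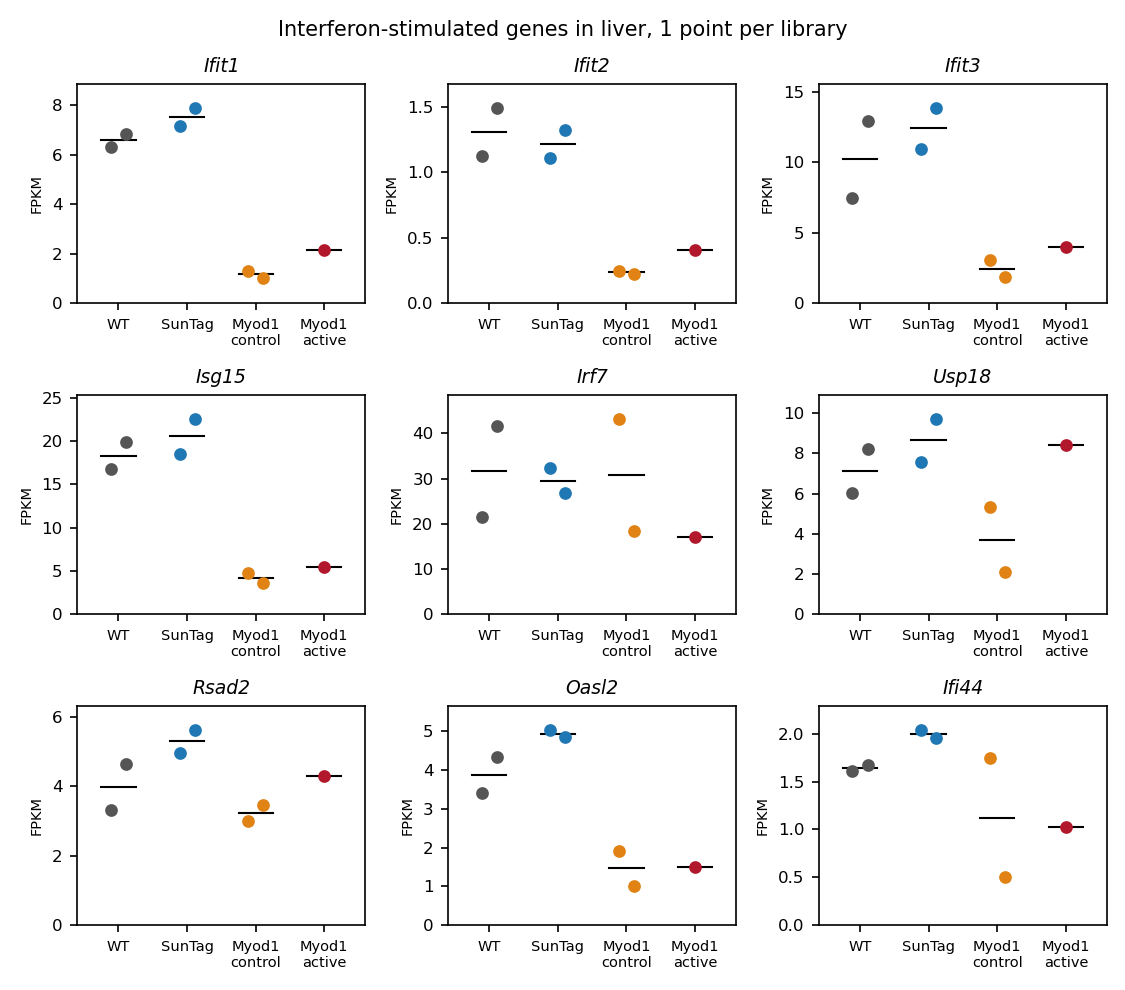
FPKM of each of the 9 interferon-stimulated genes (vertical axis, starting at 0) in the 4 groups, with 1 point per library and a line at the group mean. Ifit1, Ifit2, Ifit3, Isg15 and Oasl2 are lower in all 3 libraries of the Myod1 experiment than in WT and SunTag, while Irf7 spreads from 17.1 to 43.2 without order.

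The comparison of SunTag with WT asks what the knock-in alone does. None of the 9 genes passed limma's test (0 of 9, all adjusted p = 1), where 0.127% of all tested genes did (20 of 15744). At an unadjusted p under 0.05 the count was also 0, against 1.95% of all genes. The largest difference was that of Rsad2, at 5.29 ± 0.464 FPKM in SunTag and 3.98 ± 0.927 in WT (SD, n = 2 each). Once the median gene is taken off, this was a log2 difference of 0.33 (SE 0.178), with a 95% interval from -0.13 to 0.79. Ifit3 followed at 0.28 (SE 0.317; -0.54 to 1.10) and Oasl2 at 0.28 (SE 0.222; -0.30 to 0.85).

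The interval was narrowest for Ifit1, from -0.19 to 0.51 around 0.16. It was widest for Irf7, from -1.33 to 1.25 around -0.04, and the intervals of Ifit3 and Usp18 also reached past 1. At low FPKM a 2-fold change is less than 1 on this scale, so a narrower interval can still include it. For Isg15 the value was 0.14 (-0.33 to 0.62), for Usp18 0.23 (-0.75 to 1.22), for Ifi44 0.17 (-0.62 to 0.96) and for Ifit2 -0.07 (-0.48 to 0.34).

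In 4 of the 9, Ifit1, Rsad2, Oasl2 and Ifi44, both SunTag libraries lay above both WT libraries, as was so for 13.0% of all genes. The median of the 9 was 0.17 above that of all genes. That median rested on WT replicate 1. All 9 genes were higher in WT replicate 2 than in WT replicate 1 (39.7% of all genes were). Without WT replicate 1 the median of the 9 was 0.01, and without WT replicate 2 it was 0.44. The summed FPKM of 12 Kupffer cell markers was 409 in WT replicate 1, against 502 in WT replicate 2 and 709 and 438 in SunTag. Their part in the difference was not tested.

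The comparison of Myod1_active with Myod1_control asks what came with activation on top of what the controls received. Again 0 of 9 genes passed limma's test, against 0.254% of all genes (40 of 15744). At an unadjusted p under 0.05 there was 1, Ifit1, against 19.5% of all genes. Ifit1 was at 2.14 FPKM against 1.17 ± 0.197 (SD, n = 2), a ratio of 1.84. The log2 difference was 0.54 (SE 0.167, limma adjusted p = 0.209), but the median gene also shifted by 0.25 between these groups, which left 0.29 (95% interval -0.14 to 0.72). Usp18 had the largest difference, at 8.40 against 3.70 ± 2.28 FPKM, or 0.84 relative to the median gene (SE 0.467; -0.37 to 2.04; adjusted p = 0.280). Irf7 had the largest in the other direction, -0.95 (SE 0.613; -2.53 to 0.64; adjusted p = 0.543).

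The activated library lay above both controls in 6 of the 9 (61.4% of all genes did) and below both in 1, Irf7 (16.6% of all genes). Relative to the median gene the 9 had a median of 0.07, with 4 below it and 5 above. That median was 0.17 without Myod1_control replicate 1 and -0.08 without replicate 2, so its sign rested on 1 library. For Ifit3 the relative difference was 0.32, for Isg15 0.07, for Rsad2 0.07, for Ifit2 -0.07, for Oasl2 -0.21 and for Ifi44 -0.26. The activated arm is 1 library, which was assumed to vary like the other groups, and when the 3 libraries were fitted by themselves, 0 genes of the whole table passed (2425 at an unadjusted p under 0.05). The intervals of Ifit3, Irf7, Usp18 and Ifi44 reached past 1 or -1. At low FPKM a 2-fold change is less than 1 on this scale, so a narrower interval can still include it. Ifit1 and Ifit2 had ratios of 1.84 and 1.71, with log2 differences of 0.54 and 0.18 before the shift of the median gene. No group without any delivery can be named within that experiment.

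The controls of the Myod1 experiment against SunTag gave the largest differences. This comparison shares its libraries with both others, and it separates the experiments, the sexes and whatever the controls received, which cannot be told apart. Of the 9 genes, 5 were lower in Myod1_control and 0 higher by limma's test, against 17.0% of all genes called lower, 7.30% called higher and 24.3% in either direction. Isg15 was at 4.16 ± 0.767 FPKM against 20.5 ± 2.85 (SD, n = 2 each), 4.94 times lower, with a difference of -1.93 in log2 from the median gene (SE 0.185, adjusted p = 0.0140). Ifit1 was 6.47 times lower, at 1.17 ± 0.197 against 7.54 ± 0.505 FPKM (-1.85, SE 0.136, adjusted p = 0.0102). Ifit3 was 5.11 times lower (-1.85, SE 0.317, adjusted p = 0.0226), Oasl2 3.38 times (-1.16, SE 0.222, adjusted p = 0.0247) and Ifit2 5.15 times (-0.71, SE 0.160, adjusted p = 0.0279). Of these 5, Ifit2 was under 1 FPKM throughout the Myod1 experiment and passed the filter only through WT and SunTag. The direction of its call was therefore largely fixed in advance. SE and p belong to the differences before the shift of the median gene, -0.14, was taken off.

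The other 4 did not pass. Usp18 had a relative difference of -0.98 (adjusted p = 0.0911), Rsad2 -0.44 (0.0740), Ifi44 -0.43 (0.227) and Irf7 0.08 (0.949, limma). In 8 of the 9 both controls lay below both SunTag libraries, where 41.6% of all genes did, the exception being Irf7. The median of the 9 was -0.98 relative to the median gene.

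The 5 calls depended on the spread estimated from few libraries, while the values did not turn. Without WT replicate 1, without WT replicate 2 or without Myod1_control replicate 2, 0 of the 9 passed. Without Myod1_control replicate 1 it was 1 (Ifit1), without SunTag replicate 1 it was 2 (Ifit1 and Isg15), and without SunTag replicate 2 it was 3 (Ifit1, Ifit2 and Isg15). Across these fits the number of all genes called ran from 58 to 4070. A fit of the 2 groups alone called 2 of the 9, Ifit1 and Isg15. The split of all calls, 1149 higher and 2683 lower, became 1735 and 1846 with median-ratio scaling, and 5 of the 9 stayed lower with that scaling.

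**Figure D2:**
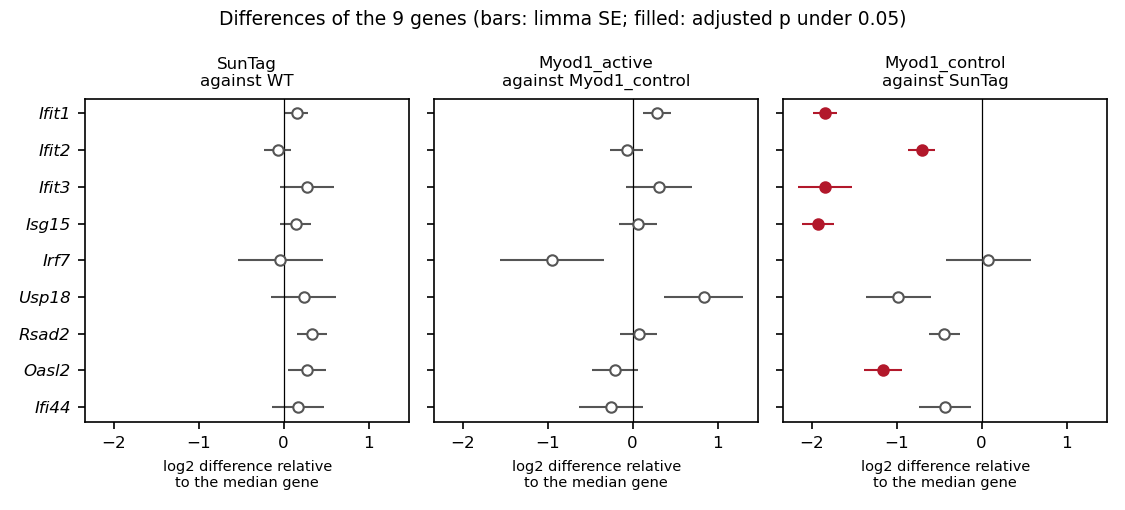
Log2 difference of FPKM + 1 relative to the median gene (horizontal axis) for the 9 genes in the 3 comparisons, with bars for the SE from limma and filled points for an adjusted p under 0.05. No point is filled in SunTag against WT or in Myod1_active against Myod1_control, and 5 are filled, all below 0, in Myod1_control against SunTag.

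Across the 7 libraries the 9 genes split by how far they followed one another. Ifit3, Oasl2, Isg15, Ifit1 and Ifit2 had a Pearson's r of 0.944 to 0.989 with the mean of the other members, on centred log2 values. Ifi44 (0.823), Usp18 (0.748) and Rsad2 (0.683) followed less closely, and Irf7 least (0.381). The 7 points fall into 2 experiments, so these coefficients mostly describe that step and are given with no p. Set over the experiments, the mean FPKM of the 4 WT and SunTag libraries was 4.74 times that of the 3 others for Ifit1, 4.33 for Ifit2, 4.25 for Isg15, 3.83 for Ifit3 and 2.99 for Oasl2. For the other 4 the ratio was 1.17 (Irf7) to 1.67 (Ifi44), and their ranges overlapped. All 3 libraries of the Myod1 experiment lay below the other 4 in 5 of the 9, and in 23.6% of all genes. Ifit2, among these 5, passed the filter only through WT and SunTag.

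Within the Myod1_control group the 2 libraries were far apart. Replicate 1 was higher than replicate 2 in 8 of the 9 genes (50.5% of all genes), by a median of 0.51 on the log2 scale. Replicate 2 was the lowest of all 7 libraries for 7 of the 9, and the share of all genes lowest in it was not computed. Irf7 (43.2 and 18.3 FPKM), Usp18 (5.32 and 2.09) and Ifi44 (1.75 and 0.499) differed most.

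The 5 genes most like the mean of the 9 over the 7 libraries were Apol9a, Apol9b, Ergic3, Psme1 and Rai2, with a Pearson's r of 0.991 to 0.996. Apol9a was at 70.5 to 98.2 FPKM in WT and SunTag and 22.2 to 38.1 in the Myod1 experiment. Psme1, a subunit of the proteasome activator, was at 142 to 184 and 68.5 to 90.9. They share the step between the experiments with 5 of the 9, Ifit1, Ifit2, Ifit3, Isg15 and Oasl2.

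Upstream of the 9 genes stand the interferons, their receptor and its signalling factors. Interferon genes themselves were close to absent: 20 had a row, 16 to 20 of them were listed at 0 in each library, and their summed FPKM was at most 0.327. None reached the level needed for testing. Of 12 receptor and signalling genes 11 were tested, and Myod1_control against SunTag gave 2 higher and 2 lower by limma, with a median of 0.05 relative to the median gene. Over all genes 7.30% were called higher and 17.0% lower, so 2 of 11 lower is near the background. The 2 of 11 higher lie above their share, which rests on 2 genes. Socs3, an inhibitor of Jak kinases that many cytokines induce, rose to 14.8 and 14.5 FPKM in Myod1_control from 2.26 and 2.19 in SunTag (log2 difference 2.41, SE 0.239, adjusted p = 0.0157). It was at 4.60 in Myod1_active and at 1.82 and 3.46 in WT. Against its controls the activated library was thus lower, but not past the threshold (adjusted p = 0.158).

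Ifnar1, the receptor chain, was at 17.7 and 15.0 FPKM in Myod1_control and 7.98 and 8.38 in SunTag, a rise of 1.05 (SE 0.177, adjusted p = 0.0288). Pias1, a SUMO ligase that dampens the pathway, was lower by 0.42 (limma adjusted p = 0.0353). Ifnar2 and Jak1 differed by 0.00 and 0.05 and Stat2 by 0.07, none past the threshold. Ptpn6 was lower by 0.76, also short of it (limma adjusted p = 0.0898). Irf9, which did not pass either, was at 9.39 and 11.7 FPKM in Myod1_control and 14.4 and 18.8 in SunTag. At an unadjusted p under 0.05 (limma) 4 of the 11 were lower and 2 higher, against 4389 and 2176 of all 15744 genes. With median-ratio scaling 3 of the 11 tested genes were called higher and 0 lower. Of all 15744 genes, 1735 were called higher and 1846 lower with that scaling. Fewer of the 11 were called when any 1 WT, SunTag or Myod1_control library was left out. Over all genes the calls also fell in these fits, except without SunTag replicate 2.

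Other interferon-stimulated effectors, with 66 rows and 59 genes tested, were lower more often than higher. In Myod1_control against SunTag 28 were lower and 1 higher by limma, against 17.0% and 7.30% of all genes, with a median of -0.58. The 28 include genes under 1 FPKM throughout the Myod1 experiment, such as Ifi204, which passed the filter only through WT and SunTag. Ifi27l2a was at 24.1 and 22 FPKM in SunTag, 2.38 and 2.13 in Myod1_control and 1.08 in Myod1_active (-2.75, SE 0.224, adjusted p = 0.0130). The membrane proteins Ifitm1, Ifitm2 and Ifitm3, which hinder virus entry, were lower by 1.58, 1.45 and 1.37. Zbp1, a sensor of unusual nucleic acid, was at 9.40 and 6.92 FPKM in SunTag and 1.31 and 2.36 in Myod1_control. The 1 that rose was Helz2, listed as BC006779, from 8.56 and 11.4 to 26.3 and 24.5 FPKM. In 34 of the 59 all 3 libraries of the Myod1 experiment were below the other 4, against 23.6% of all genes. Fewer of them passed when any 1 WT, SunTag or Myod1_control library was left out. Over all genes the calls also fell in these fits, except without SunTag replicate 2, where they rose. The median stayed between -0.51 and -0.73 in these fits.

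Genes known mainly for the response to interferon gamma, 32 of 35 tested, gave 13 lower and 0 higher, against 17.0% and 7.30% of all genes, with a median of -0.69. Among them were the immunoproteasome subunits Psmb8, Psmb9 and Psmb10 (-1.18, -1.57 and -1.33) and the guanylate-binding protein gene Gbp3 (-1.64). Gbp2 and Cd274, also called, passed the filter only through WT and SunTag. Both controls lay below both SunTag libraries in 23 of the 32 and above them in 4, against 6555 and 3927 of 15744 genes. Tapbp was among the 4, at 163 and 114 FPKM in Myod1_control and 59.9 and 95.5 in SunTag. Fewer passed when any 1 WT or Myod1_control library or SunTag replicate 1 was left out, as was so over all genes. Of 21 tested nucleic acid sensors and adaptors 4 were lower, Ifi204, Tmem173, Samhd1 and Unc93b1, with a median of -0.15. That share is near the 17.0% of all genes called lower. Ifi204 and Tmem173 passed the filter only through WT and SunTag, and Ifi204 is also among the other effectors called lower. Of 12 tested NF-kB inflammatory genes (20 had a row) 4 were lower, Ccl5, Il1b, Nfkbia and Ccl2, against the same 17.0%. Ccl5, Il1b and Ccl2 passed the filter only through WT and SunTag. Both counts also fell when any 1 of these libraries was left out, as did the calls over all genes. Without SunTag replicate 2 fewer sensors passed, while the calls over all genes rose. No gene of any of these lists passed in SunTag against WT or in Myod1_active against Myod1_control (lowest adjusted p 1 and 0.145, limma). At an unadjusted p under 0.05 (limma) in SunTag against WT there were 1 of 59 other effectors, 1 of 32 interferon gamma genes and 1 of 12 NF-kB genes. All were higher, and 1.95% of all genes had such a p in either direction. Relative to the median gene these lists had medians of -0.003, 0.09 and 0.23, with 31, 11 and 1 genes below it. In Myod1_active against Myod1_control 19.5% of all genes had such a p, beside 10 of 59 other effectors and 6 of 21 sensors and adaptors, all higher. Receptor and signalling genes had 3 higher and 1 lower of 11, and interferon gamma genes 5 higher and 1 lower of 32.

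**Figure D3:**
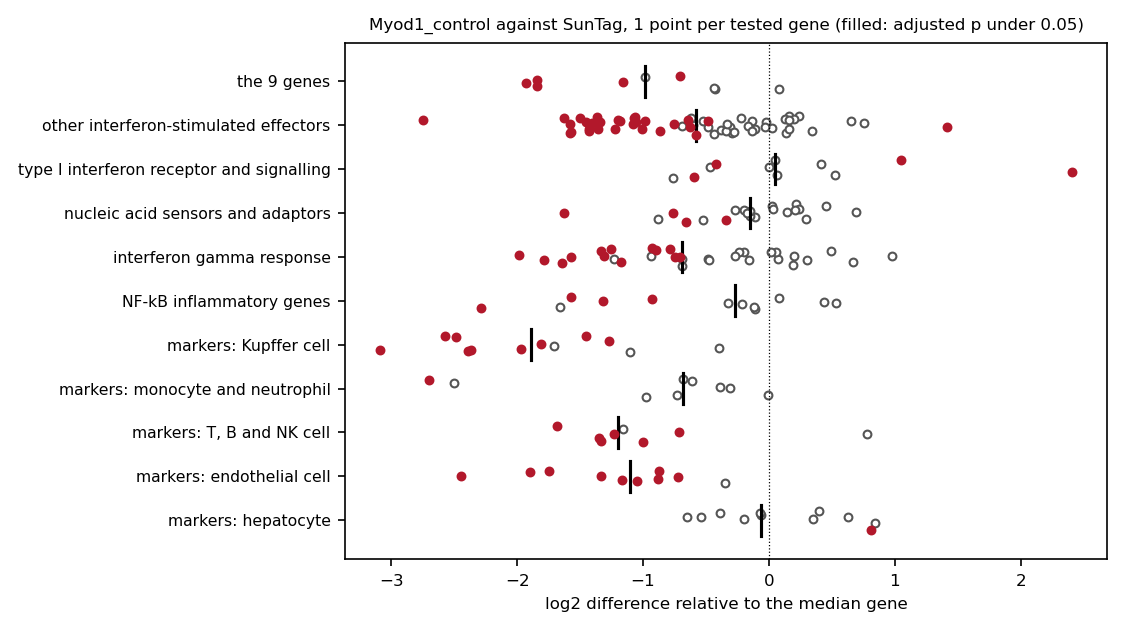
Log2 difference relative to the median gene (horizontal axis) in Myod1_control against SunTag, with 1 point per tested gene in 11 lists, filled where the adjusted p was under 0.05 and a bar at the median of each list. The 9 genes, the other effectors, the interferon gamma genes and the markers of Kupffer, endothelial and lymphoid cells lie mostly below 0, and receptor and signalling genes lie on both sides.

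Markers of non-parenchymal cells moved between the experiments along with 5 of the 9 genes. Over all genes 17.0% were called lower, and the counts of markers below stand against that share. In bulk tissue fewer cells of a type and less RNA per cell cannot be told apart. Of 12 Kupffer cell markers 9 were lower in Myod1_control than in SunTag (median -1.89), among them Clec4f at 148 and 103 against 11.4 and 13.3 FPKM. None was at 0, and the summed FPKM of the 12 was 409 to 709 in WT and SunTag and 89.4 to 174 in the Myod1 experiment. Lyz2 alone made up 87.3 of the 174 in Myod1_active and was at 54.9 in Myod1_control replicate 2, against 51.2 to 91.3 in WT and SunTag. In 10 of the 12 all 3 libraries of the Myod1 experiment lay below the other 4 (23.6% of all genes). Timd4, among the 9 and the 10, passed the filter only through WT and SunTag. Of 10 endothelial markers 9 were lower (median -1.1), with sums of 193 to 212 and 40.8 to 60.7. Of 8 tested markers of T, B and NK cells 6 were lower (median -1.20), with sums of 11.4 to 22.2 over all 16 and of 1.55 to 8.47 in the Myod1 experiment, where 5 to 9 of the 16 were listed at 0. All 6 were under 1 FPKM throughout the Myod1 experiment and passed the filter only through WT and SunTag. Their direction was therefore largely fixed in advance. Cd4 alone made up 7.38 of the 8.47 in Myod1_active and was at 2.90 in Myod1_control replicate 1, against 0.30 to 0.39 in WT and SunTag. Of 9 tested monocyte and neutrophil markers 1 was lower, S100a9 (sums of 11.4 to 53.9 and 2.66 to 7.14), which also passed the filter only through WT and SunTag. Of 8 plasmacytoid dendritic cell markers only Ly6d was tested. It was lower in Myod1_control than in SunTag, but at 2.65 FPKM in Myod1_active it was above every other library. Fewer of all these markers passed when any 1 WT or Myod1_control library or SunTag replicate 1 was left out, as was so over all genes. Without SunTag replicate 2 more monocyte and neutrophil markers passed and Ly6d did not, while the calls over all genes rose. The part of these cells in the lower values among the 9 genes was not tested.

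Hepatocyte markers gave a median of -0.06 in the same comparison, with 1 of 11 called, Cps1, which was higher. Cps1 did not pass without any 1 WT or Myod1_control library or SunTag replicate 1, where the calls over all genes also fell. Without SunTag replicate 2 more of the 11 passed, and the calls over all genes rose. Their summed FPKM was 69231 to 82970 in WT and SunTag and 46899 to 52971 in the Myod1 experiment, so the tissue had the markers its label names in all 7 libraries. Between Myod1_active and its controls the endothelial markers were all below the median gene (10 of 10, median -0.76, 0 past the threshold).

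**Figure D4:**
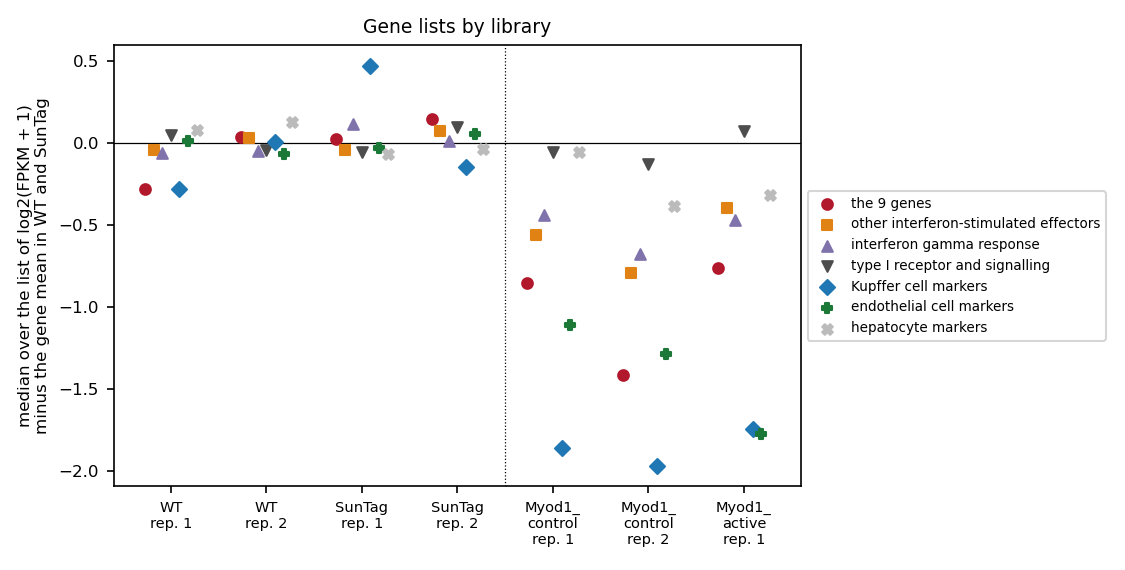
For each library (horizontal axis), the median over the tested genes of a list of log2(FPKM + 1) minus the gene's mean in WT and SunTag (vertical axis), with 1 symbol per list and a dotted line between the experiments. The 9 genes lie from -0.28 to 0.15 in WT and SunTag and from -1.41 to -0.76 in the Myod1 experiment, between the other effectors and the Kupffer cell markers, and receptor and signalling genes stay between -0.12 and 0.10.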

How the data were processed

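Gene tables of 7 liver libraries were analysed. Per the file headers, the deposited values were FPKM for each gene, beside 2 bounds and a status. The submitters' processing notes name Cufflinks 2.2.1, TopHat2 2.1.1, cutadapt 1.11 and mm9. The sources used here do not state settings, annotation or strand use. Kit and library type are known only from the labels' protocols (total RNA, Illumina).

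The 343 rows that lacked the status OK in at least 1 library were left out, and rows of 1 symbol were summed (244 symbols). Genes with an FPKM of at least 1 in at least 1 library were tested (15744) two-sided on the log2(FPKM + 1) scale by limma 3.58.1 (R 4.3.3), fitting the 4 group means jointly to the 7 libraries with a variance trend (3 residual and 1.93 prior degrees of freedom). The shift of the median gene is taken off log2 differences unless said otherwise. It was 0.01, 0.25 and -0.14 in the 3 comparisons. Intervals use the SE and the same degrees of freedom. Of 63 deposited member values 5, all of Isg15, fell beyond their bounds, which were therefore not taken as errors. The code was tested on simulated data. Positions are 1-based.

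The 9 genes and the lists were chosen with earlier results of these data known. All 9 were named; of other lists, genes past the threshold or with the largest differences were eligible, and fewer were named; 1 called gene of the signalling list is not reported here. The most alike genes were the 5 with the highest correlation outside predicted genes, clones and genes spanning under 300 bp. Alternatives were other scalings, pseudocounts, filters and designs and leaving out each library. Replicate numbers were not treated as pairs.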

Additional observations from a re-analysis of the deposited data

How the results depend on the processing

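In SunTag against WT and in Myod1_active against Myod1_control, 0 of the 9 genes passed under every alternative run. With few libraries the counts over all genes moved. In SunTag against WT the 20 genes became 5 without genes spanning under 300 bp, 31 in a fit of the 2 groups alone, and 23 to 79 with 1 library left out. In Myod1_active against Myod1_control the 40 became 23 with a pseudocount of 0.1, 253 with no filter, 20 without short genes, 0 in the 2 groups alone, and 49 to 119 with 1 library left out; leaving out Myod1_active replicate 1 leaves no comparison. In Myod1_control against SunTag the 3832 became 255 in the 2 groups alone and 58 to 4070 with 1 library left out, and the 5 genes of the 9 became 2 and 0 to 5. Leaving out 1 library also takes away 1 residual degree of freedom unless it is the Myod1_active library. The split of 1149 higher and 2683 lower was 1757 and 1764 with quantile normalization and 719 and 1933 with no filter. With short genes left out, Usp18 also passed, Ifit2 did not with quantile normalization, and a filter on the mean left Ifit2 out of the test.

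The log2 differences in this paragraph are those before the shift of the median gene was taken off. On that scale the main fit gave Ifit3 0.29, Ifit2 -0.06 and Irf7 -0.03 in SunTag against WT. It gave Oasl2 0.04 and Ifi44 -0.003 in Myod1_active against Myod1_control, and Irf7 -0.06 in Myod1_control against SunTag. Signs turned from these in 15 cases, none past the threshold. In SunTag against WT the log2 difference of Ifit3 ran from -0.066 without WT replicate 1 to 0.65 without WT replicate 2, that of Ifit2 was 0.058 without WT replicate 2 and 0.01 without SunTag replicate 1, and that of Irf7 ran from -0.49 without WT replicate 1 to 0.44 without WT replicate 2, at 0.11 without SunTag replicate 2. In Myod1_active against Myod1_control Oasl2 was at -0.15 with median-ratio scaling, -0.17 with quantile normalization, -0.0080 with the replicate block and from -0.22 to 0.31 without Myod1_control replicate 2 or 1. Ifi44 was at 0.10 with a pseudocount of 0.1 and from -0.44 to 0.43 without Myod1_control replicate 2 or 1. In Myod1_control against SunTag Irf7 was at 0.13 with median-ratio scaling, 0.15 with quantile normalization, 0.08 without SunTag replicate 1 and from -0.655 to 0.54 without Myod1_control replicate 1 or 2. The causes were not tested.

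Same-numbered WT and SunTag libraries showed a correlation of deviations of 0.04, so the numbers were not taken as pairs. A replicate block gave 15, 23 and 2928 genes in the 3 comparisons, and 0, 0 and 5 of the 9.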
